A study of Homo sapiens with 6 samples.

Results

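Fibroblast growth factor (FGF) signalling through the kinase ERK was examined with 36 genes: the growth factor genes FGF2, FGF8 and FGF13, the 4 FGF receptors, the cascade from FRS2 to the ERK gene MAPK3, the feedback inhibitors, and genes that ERK switches on. They were taken by name from a table of 53719 gene rows. All 36 had a row, and all 36 were among the 19721 genes with enough counts to be tested. The RNA came from H9, a long-established line of human embryonic stem cells, grown in RSeT, a commercial medium sold for a naive-like state. Cells of 1 group received a control gapmer and those of the other a gapmer against ALR, the alpha satellite RNA transcribed from the repeats at human centromeres. A gapmer is an antisense oligonucleotide whose DNA core recruits RNase H to cut the paired RNA. RNA was taken 48 h later, in 3 libraries per group that carry the letters a, b and c. All 6 libraries share the line, the medium and a transfection, and untransfected cells were not analysed here. The labels do not say whether the libraries of a group came from separate cultures, so p-values measure only the spread between these libraries, which may be technical. The loss of ALR itself was not checked, because no row of that name was found.

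FGFs bind receptor tyrosine kinases at the cell surface. The docking protein FRS2 then brings GRB2 and the exchange factors SOS1 and SOS2 to the membrane, RAS is loaded with GTP, and RAF, MEK and ERK are phosphorylated in turn. ERK activates transcription of ETS factors such as ETV4 and ETV5 and of immediate early genes such as EGR1 and FOS, and it also raises its own inhibitors, the DUSP phosphatases and the Sprouty and SPRED proteins. Transcripts of these targets are therefore often read as a record of pathway activity, whereas most cascade kinases are controlled by phosphorylation. In human embryonic stem cells, FGF2 sustains the primed state, and media for the naive state commonly block MEK.

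After ALR knockdown 1 of the 36 genes changed past the threshold, an adjusted p of 0.05 over all genes tested: ETV5 rose. That is 2.78% of the members, beside 0.786% of all genes tested (155 genes, of which 27 or 0.137% were higher and 128 or 0.649% were lower). The other 35 members did not pass, and their values are given below as measurements. Before adjustment, 16 of 36 had a p under 0.05 (44.4%), beside 14.3% of all genes. Of these 16, 9 were higher (background 6.68%) and 7 were lower (background 7.57%). The 3 knockdown values lay wholly above or below the 3 control values in 13 members (36.1%, background 18.9%), 7 of them higher (background 9.55%) and 6 lower (background 9.37%). The members had been chosen with results of these data known, so these shares are descriptions, and no test of the list was made.

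The direction of the set was mixed. The log2 fold change, knockdown over control, lay above 0 in 22 members and below 0 in 14, with a median of 0.03 and a range of -0.64 to 0.55. Over all genes tested the median was 0.02. Scaling moved the member median and that over all genes together. The member median was 0.0208 with DESeq2 size factors, 0.0443 with upper-quartile scaling and 0.0539 with library size alone. Over all genes it was 0.0138, 0.0368 and 0.0465 in that order. With each of these scalings 22 members lay above 0. Among all genes called, the split was 27 higher and 128 lower with TMM. It was 45 and 112 with upper-quartile scaling and 56 and 102 with library size alone. Every fold change below is on the TMM scale.

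Library totals ran from 25087629 to 36576752 counts. Knockdown library a stood apart: it had counts in 29678 rows, compared with 25898 to 26788 in the others, and 1862 rows had counts there alone, compared with 226 to 371 rows for each other library. The summed level of 8 pluripotency markers was 5724 to 6338 CPM in knockdown and 5570 to 5648 CPM in control libraries. CPM are counts put on a common library size, with TMM factors. SOX2 is listed at 0 in all 6, but all its exon bases lie within the span of another gene, so its level is uncertain. Control means of the naive-state markers ran from 0.0766 CPM for KLF17 to 58.1 CPM for TFAP2C. The sum of 10 was 127 to 136 CPM in knockdown and 132 to 136 CPM in control libraries. The primed-state markers, DUSP6 among them, summed to 354 to 396 CPM and 341 to 371 CPM over the 7 of 8 with a row. Sums for markers of trophectoderm and amnion (8 genes) were 3.13 to 4.86 CPM in knockdown and 3.35 to 3.80 CPM in control libraries, and those for endoderm (5 genes) 6.53 to 7.40 CPM and 5.56 to 6.96 CPM. Mesoderm markers, 4 of 5 with a row, summed to 14.2 to 16.1 CPM in knockdown libraries, above the 11.5 to 13.9 CPM of controls. Most of that sum was MIXL1. The pluripotency sums of the knockdown libraries likewise lay above those of controls. Neuroectoderm markers (4 genes) summed to 353 to 401 CPM and 302 to 355 CPM, nearly all from NES and with NEUROD1 at 0, and fibroblast markers (7 genes) to 86.7 to 96.3 CPM and 90.6 to 104 CPM, with THY1 at 0. In each of these lists 0 genes passed the adjusted threshold with edgeR's quasi-likelihood test; at an unadjusted p under 0.05 the counts were 2 of 7 tested, 1 of 9, 0 of 7, 0 of 5, 0 of 3, 1 of 3, 1 of 2 and 2 of 3 in the order given (background 14.3%). The part of these cell types in the results was not tested. In such bulk RNA, fewer cells of a type and less RNA per cell cannot be told apart.

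**Figure D1:**
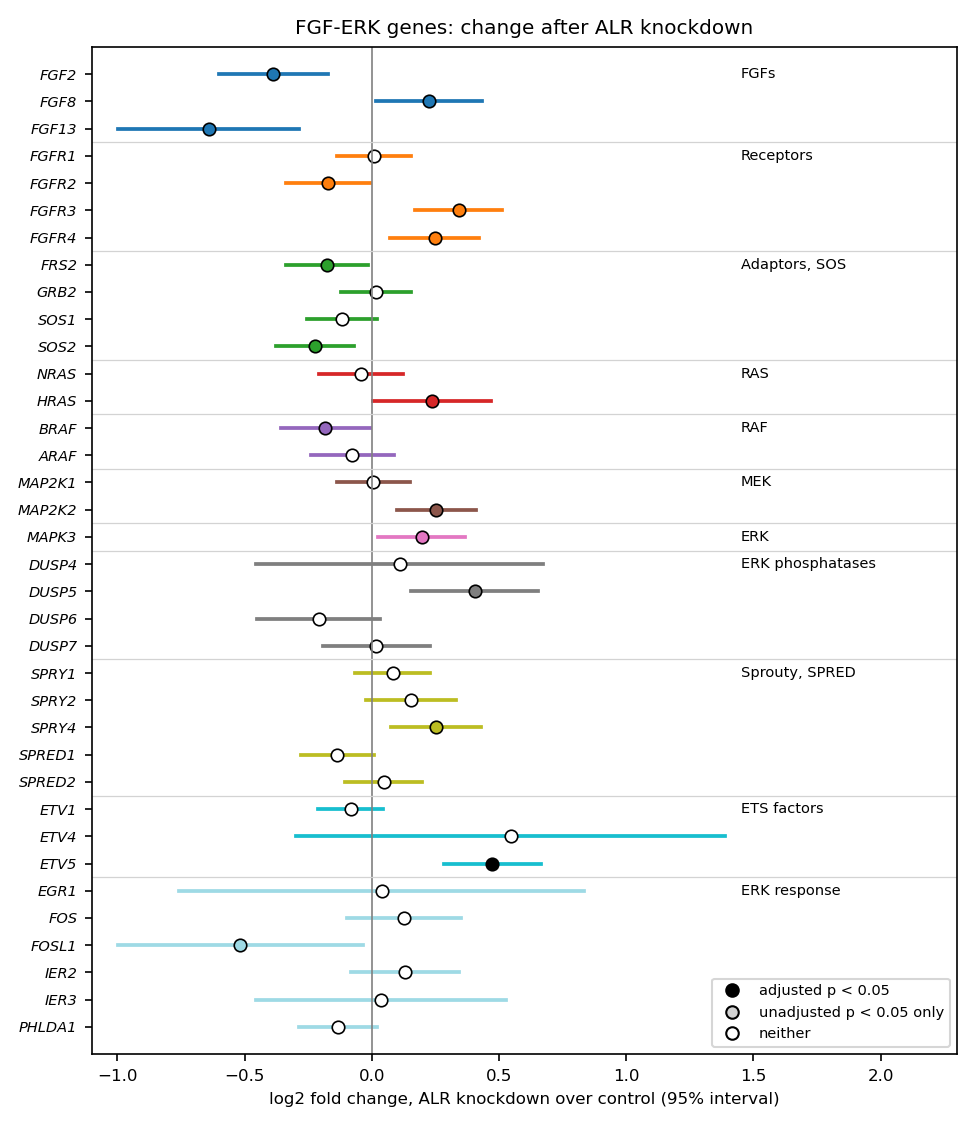
Log2 fold change of each of the 36 genes, knockdown over control, on the horizontal axis, with genes grouped by role on the vertical axis; bars are 95% intervals of edgeR's quasi-likelihood fit with 3 libraries per group. ETV5 alone is marked as past the adjusted threshold, and the intervals of 20 genes span 0.

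FGF2 is the secreted growth factor that human embryonic stem cell media most often supply. Its own transcript (ENSG00000138685.15, chromosome 4, 122826708 to 122898236, plus strand, GRCh38) was at 107, 97.2 and 132 CPM in the knockdown libraries and at 152, 137 and 151 CPM in the controls, here and below in the order a, b, c. All knockdown values lay below all control values, with library c the nearest to them. The log2 fold change was -0.39 ± 0.10 (SE) and the edgeR adjusted p 0.101. The call depended on the fit: the adjusted p was 0.0160 with the replicate letter as a block, 0.00188 without knockdown library c and 0.442 without control library c. The 3′ part of FGF2 lies under NUDT6, a gene on the opposite strand, and 88.9% of the exon bases of FGF2 fall within the span of another gene with a row. NUDT6 itself was 0.12 higher on the log2 scale (adjusted p = 0.719).

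FGF8, a ligand of early embryonic patterning, was at 14.7, 17.1 and 16.3 CPM in knockdown and 14.6, 13.7 and 12.9 CPM in control libraries. The groups did not overlap, though knockdown a and control a nearly met (log2 fold change 0.23 ± 0.10; adjusted p = 0.312). FGF13 differs in kind from both, since it codes for an intracellular FGF homologous factor that binds sodium channels and microtubules and is not secreted. It is also by far the longest member, spanning 608 kb of chromosome X (138614731 to 139222777, minus strand, ENSG00000129682.15). Its values were 390.3, 338 and 574 CPM in knockdown and 787, 586 and 656 CPM in control libraries. Knockdown c lay close to control b, and the other knockdown libraries were much lower. The log2 fold change was -0.64 ± 0.16 (adjusted p = 0.0998), and the adjusted p was 0.00982 with the replicate block, 0.00132 without knockdown library c and 0.338 without control library a.

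The 4 receptor genes did not move together. On the scale of CPM per kb of exon, control levels were 52.5 ± 0.819 for FGFR1, 47.5 ± 0.992 for FGFR2, 13.7 ± 0.665 for FGFR4 and 4.79 ± 0.243 for FGFR3 (SD, n = 3), and the control libraries of neighbours in that order did not overlap. Per kb of gene span the order was FGFR1 (4.99), FGFR4 (3.90), FGFR2 (2.65) and FGFR3 (1.37), so the place of FGFR2 and FGFR4 depends on which length is used. FGFR1, the receptor with the highest level on both scales, was at 321, 358 and 355 CPM in knockdown and 342, 347 and 337 CPM in control libraries. These overlapped, and the difference of 0.01 on the log2 scale had a 95% interval of -0.14 to 0.16. FGFR2 was at 259.9, 275.5 and 314 CPM in knockdown and 318, 312 and 325 CPM in control libraries (log2 fold change -0.17 ± 0.08; adjusted p = 0.337). Only knockdown c reached the control range there, and without that library the adjusted p was 0.0111. That was the 1 call of FGFR2 in 17 alternatives, over which the adjusted p went up to 0.6675.

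FGFR3 and FGFR4, the receptors with the lower levels per kb of exon, were the ones with higher values after knockdown. FGFR3 (ENSG00000068078.18, chromosome 4, 1793293 to 1808872, plus strand) was at 25.7, 27.0 and 28.5 CPM in knockdown and 22.3, 20.2 and 21.7 CPM in control libraries, without overlap. Its log2 fold change of 0.34 ± 0.08 had an edgeR adjusted p of 0.0753, the second lowest of the 36. FGFR4 was at 47.3, 57.0 and 51.9 CPM in knockdown and 46.3, 42.3 and 43.1 CPM in control libraries (0.25 ± 0.08; adjusted p = 0.190). Knockdown a exceeded control a by little. FGFR3 passed the adjusted threshold with DESeq2's Wald test (adjusted p = 0.0327) and with no low-count filter (0.0131), and FGFR4 in 0 of 17 alternatives.

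**Figure D2:**
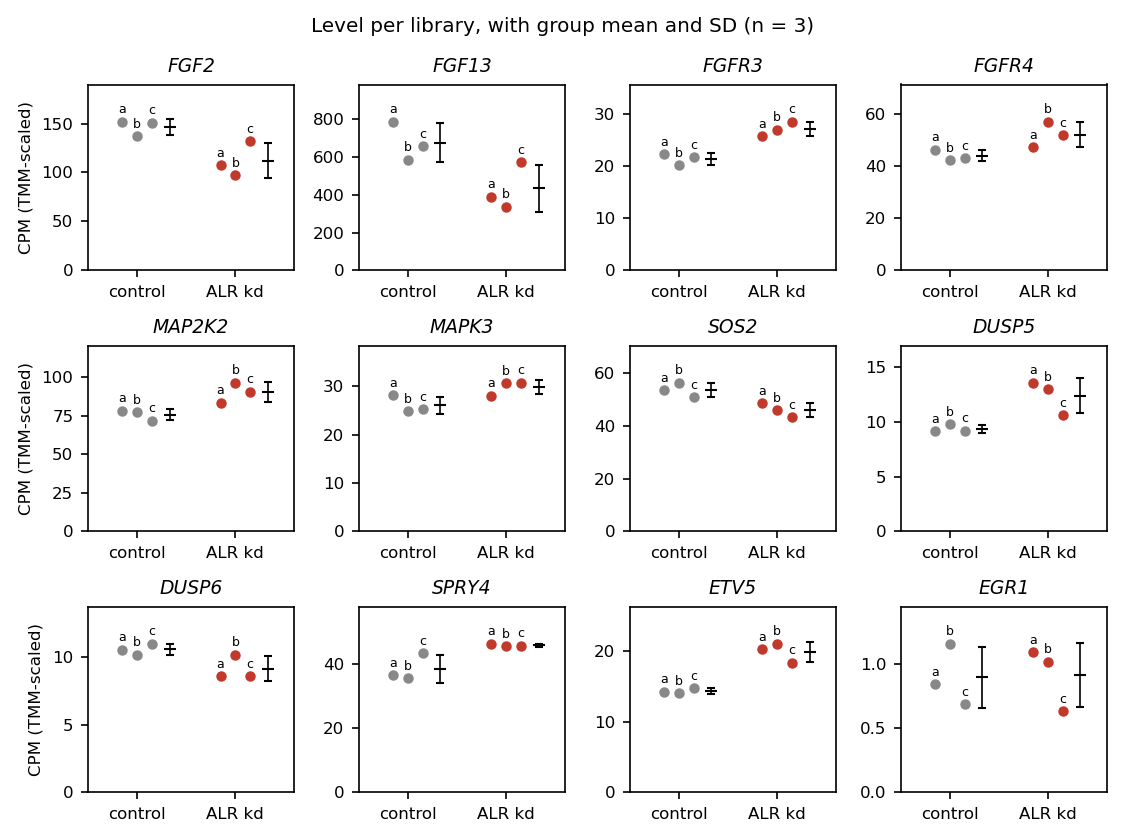
Level of 12 of the 36 genes in each library, as CPM on TMM-scaled library sizes with each vertical axis starting at 0; letters name the libraries, grey points are control and red points are knockdown, and bars beside them give the mean and SD over 3 libraries. Knockdown values of ETV5, FGFR3, FGFR4, MAP2K2, DUSP5 and SPRY4 lie above all control values, those of FGF2, FGF13 and SOS2 lie below them, and those of MAPK3, DUSP6 and EGR1 overlap them.

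Between receptor and RAS, 3 of 4 genes were below 0 and none of the 4 passed the adjusted threshold. SOS2, an exchange factor that loads RAS with GTP, was at 48.6, 46.1 and 43.4 CPM in knockdown and 53.7, 56.5 and 51.0 CPM in control libraries. The groups did not overlap, with a log2 fold change of -0.22 ± 0.07 and an adjusted p of 0.186. Its paralog SOS1 also had non-overlapping groups, 111 to 119 CPM against 120.1 to 128 CPM, with a difference of -0.12 ± 0.06 (adjusted p = 0.426). FRS2, the docking protein of the FGF receptors, was at 81.7, 80.2 and 94.3 CPM in knockdown and 94.1, 100.2 and 94.7 CPM in control libraries (-0.17 ± 0.07; adjusted p = 0.312). As for FGFR2, knockdown c sat among the controls, and without that library the adjusted p was 0.0203. FRS2 was called in that 1 of 17 alternatives, over which the adjusted p went up to 0.6346. The adaptor GRB2 differed by 0.02, with a 95% interval of -0.12 to 0.16.

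The 2 paralogs at each step of the kinase cascade gave different values. MAP2K2 codes for MEK2 and MAP2K1 for MEK1, the kinases that phosphorylate ERK. MAP2K2 was at 83.6, 96.5 and 90.7 CPM in knockdown and 78.4, 77.2 and 71.8 CPM in control libraries, with no overlap and a log2 fold change of 0.25 ± 0.07 (adjusted p = 0.136). MAP2K1 differed by 0.01, with a 95% interval of -0.14 to 0.15, on 56.8 ± 1.44 CPM in knockdown and 56.6 ± 2.85 CPM in control libraries (SD, n = 3). Whether the paralogs differ from each other in their change was not tested.

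MAPK3, the gene of ERK1, was at 28.1, 30.6 and 30.8 CPM in knockdown and 28.1, 24.8 and 25.2 CPM in control libraries. Knockdown a and control a were level, and the other libraries were apart (log2 fold change 0.20 ± 0.08; adjusted p = 0.287). HRAS, a small GTPase, had a mean of 16.4 ± 1.83 CPM in knockdown and 13.9 ± 1.11 CPM in control libraries (0.24 ± 0.11; adjusted p = 0.340), while NRAS differed by -0.04 (95% interval -0.21 to 0.12). BRAF, the RAF kinase with the strongest activity towards MEK, was at 102, 102 and 125 CPM in knockdown and 124, 125 and 123 CPM in control libraries (-0.18 ± 0.08; adjusted p = 0.332). It repeated the pattern of FRS2 and FGFR2, with knockdown c at the control level, and without that library its adjusted p was 0.00733. BRAF too was called in 1 of 17 alternatives, over which the adjusted p went up to 0.6246. ARAF differed by -0.08, with a 95% interval of -0.24 to 0.09.

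The feedback genes were likewise split. DUSP5, a nuclear phosphatase that takes the phosphate from ERK, was at 13.6, 13.0 and 10.6 CPM in knockdown and 9.15, 9.82 and 9.22 CPM in control libraries. All knockdown values exceeded all control values, with a log2 fold change of 0.41 ± 0.11 and an adjusted p of 0.136. DUSP6, the cytoplasmic ERK phosphatase often used as a reporter of FGF signalling, pointed the other way. It was at 8.57, 10.2 and 8.59 CPM in knockdown and 10.5, 10.1 and 10.96 CPM in control libraries, a difference of -0.21 ± 0.11 (95% interval -0.45 to 0.03; adjusted p = 0.422). Knockdown b lay among the controls. DUSP7 was at 20.9 ± 2.64 CPM and 20.7 ± 0.655 CPM, and DUSP4 was low, at 1.26 to 1.98 CPM over all 6 libraries, so that its difference of 0.11 had a wide 95% interval of -0.45 to 0.67.

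Among the Sprouty and SPRED genes, whose proteins restrain RAS and RAF activation, SPRY4 had the lowest p. It was at 46.5, 45.6 and 45.9 CPM in knockdown and 36.7, 35.6 and 43.4 CPM in control libraries. The knockdown libraries were nearly equal and control c was closest to them (log2 fold change 0.25 ± 0.08; adjusted p = 0.190). SPRY2 was at 44.4, 45.4 and 40.0 CPM in knockdown and 38.8, 42.3 and 35.6 CPM in control libraries, a difference of 0.15 with a 95% interval of -0.02 to 0.33 (adjusted p = 0.421). SPRY1 differed by 0.08 and SPRED2 by 0.05, and both had overlapping groups. SPRED1 was the member of this family below 0, at 118 to 130 CPM in knockdown and 129.9 to 141 CPM in control libraries (-0.14 ± 0.07; adjusted p = 0.377), with control b and knockdown c almost touching.

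ETV5 (ENSG00000244405.7, chromosome 3, 186046308 to 186110318, minus strand) codes for an ETS transcription factor of the PEA3 family, whose transcription FGF signalling raises in many tissues. It was at 20.3, 21.0 and 18.3 CPM in knockdown and 14.2, 14.0 and 14.7 CPM in control libraries. Every knockdown value exceeded every control value, and the spread within each group was small (SD 1.39 and 0.383, n = 3). The log2 fold change was 0.47 ± 0.09 (95% interval 0.28 to 0.67; edgeR adjusted p = 0.0281). The size of the rise was steady, between 0.43 and 0.51 over 17 alternatives, and the call was made in 12 of them. With 1 library left out it was kept without knockdown c (adjusted p = 0.00751) and lost in the other 5 fits, with adjusted p of 0.0648 without knockdown a, 0.126 without knockdown b, 0.138 without control a, 0.175 without control b and 0.162 without control c. Another gene, DGKG, lies partly over ETV5, and 17.4% of the exon bases of ETV5 are under another gene's span. DGKG was at 4.44 CPM in knockdown a and at 0.831 to 2.01 CPM in the other libraries.

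The other PEA3 genes did not pass the threshold. ETV4 was barely detected, at 1.02, 0.689 and 0.989 CPM in knockdown and 0.704, 0.386 and 0.743 CPM in control libraries, which stand for 12 to 29 counts each. Its difference of 0.55 ± 0.39 was the highest of the 36 genes and had a 95% interval of -0.30 to 1.39 (adjusted p = 0.558). All exon bases of ETV4 lie within the span of another gene, so its level is uncertain. ETV1 was well expressed, at 115 to 118 CPM in knockdown and 122 to 125 CPM in control libraries. These did not overlap, but the difference was -0.08 ± 0.06 (adjusted p = 0.564). Whether ETV5 differs from ETV1 in its change was not tested.

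Across the 6 libraries the members most like ETV5 were DUSP5, FGFR3 and SPRY4, with Pearson correlations of log2 CPM of 0.93, 0.88 and 0.84. These correlations describe the same 6 libraries in which the groups differ, and each includes the difference between groups.

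The immediate early genes are the fastest transcriptional readout of ERK, switched on through serum response factor, which binds CArG boxes in their promoters. EGR1 was the single member whose RefSeq promoter window (250 bases before to 50 after the start, GRCh38.p14) held a match to the CArG box. The window was searched on both strands for all 28 members with an entry, 46 windows in all, since several genes have more than 1 start. The box reads the same on both strands, and 1.29% of 35116 human promoter windows held one. The stretch of the EGR1 promoter that holds both of its boxes, shown with the boxes in capitals, lies at chr5:138465359-138465458 on the plus strand and runs from 120 to 21 bases before the start.
EGR1: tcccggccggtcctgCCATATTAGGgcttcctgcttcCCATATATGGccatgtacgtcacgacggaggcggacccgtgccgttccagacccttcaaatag
The same windows held the ETS sequence CCGGAAGT in NRAS and FRS2 (4.14% of all windows), the AP-1 sequence TGAGTCA in SPRED2 (4.95%) and the CRE sequence TGACGTCA in 0 members (1.85%). These are matches of letters within the windows. ETV5 had no entry, nor did the response genes FOSL1 and IER3. Sequence outside the windows, such as that further upstream of FOS, was not searched.

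EGR1 was at 1.09, 1.02 and 0.633 CPM in knockdown and 0.844, 1.16 and 0.688 CPM in control libraries, or 16 to 36 counts per library. The groups overlapped fully, and the difference of 0.04 had a 95% interval of -0.76 to 0.83, so a change of less than about that size was not detectable at this depth. FOS, the partner of JUN in the AP-1 factor, was at 20.2, 24.5 and 22.5 CPM in knockdown and 17.9, 21.2 and 22.4 CPM in control libraries (0.13 ± 0.10; adjusted p = 0.623). FOSL1, a later AP-1 member that follows sustained ERK activity, was at 3.24, 2.55 and 3.21 CPM in knockdown and 5.56, 4.22 and 3.11 CPM in control libraries (-0.52 ± 0.22; adjusted p = 0.321). Control c was as low as the knockdown libraries. IER2 differed by 0.13 and IER3 by 0.03, with 95% intervals of -0.08 to 0.34 and -0.46 to 0.53. PHLDA1 differed by -0.13 (95% interval -0.29 to 0.02). None of the 6 response genes passed the adjusted threshold, and at an unadjusted p under 0.05 there was FOSL1.

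**Figure D3:**
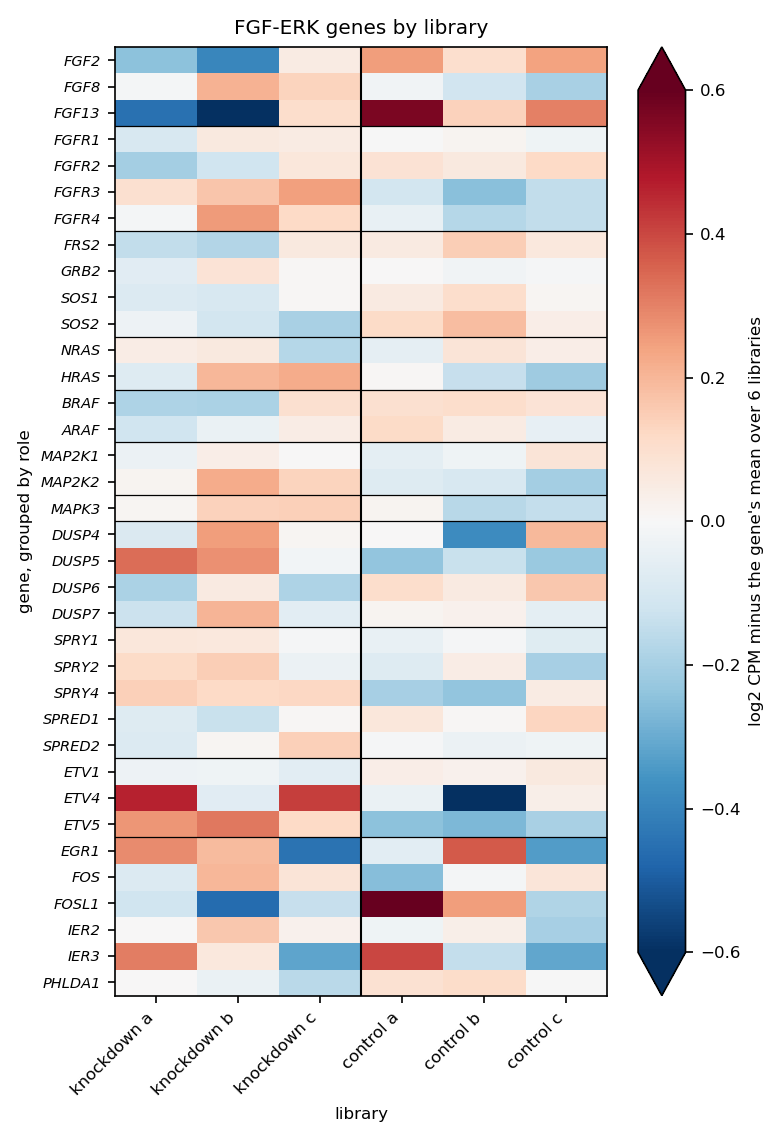
Log2 CPM of each of the 36 genes in each library (columns) minus the gene's mean over all 6, as colour from blue (lower) to red (higher); rows are ordered by role and the black line parts knockdown from control libraries. Knockdown a and b are blue for FGF2, FGF13, FGFR2, FRS2 and BRAF, whereas knockdown c is not.

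In those 5 genes knockdown libraries a and b were the lowest, and knockdown c was nearer to the controls. Knockdown c lay within the control range for FGFR2, FRS2 and BRAF, and below it for FGF2 and FGF13. Without knockdown c, 7 members passed the adjusted threshold: FGF2, FGF13, FGFR2, FRS2, BRAF, DUSP5 and ETV5. With each of the other 5 libraries left out, 0 members passed in edgeR's quasi-likelihood test. Over all genes the fit without knockdown c called 1309, or 6.4% of 20456 tested, beside 0.786% in the main fit. The other 5 fits called 0.127% to 0.507% of all genes tested.

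Direction went with the length of the gene. Of the 20 members that span under 20 kb, 15 were above 0 (median 0.12). Of the 6 that span 20 to 100 kb, 5 were above 0 (median 0.14), and of the 10 that span over 100 kb, 2 were above 0 (median -0.15). Over all tested genes with a span, the shares above 0 were 64.6%, 54.1% and 41.2% in the same order, with medians of 0.06, 0.01 and -0.04. Across genes, which are not independent replicates, Spearman's rho between log2 fold change and span was -0.37 over the 36 members, -0.32 without FGF13 and -0.17 over 15995 tested genes. The long members below 0 were FGF13, FGFR2, FRS2, SOS1, SOS2, BRAF, SPRED1 and ETV1.

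The libraries differed in this length trend within groups too. Over all genes, the Spearman correlation of a library's deviation from the gene mean with span was -0.39 in knockdown b and 0.26 in control c, and -0.02 to 0.07 in the other 4. After removal of each library's trend on span, a step chosen once the data were known, 18 of 36 members were above 0, ETV5 was still called (adjusted p = 0.0147), FGF13 was called as well (log2 fold change -0.55; adjusted p = 0.0424), and FGF2 had an adjusted p of 0.0544. The part of the length trend in the other results was not tested.

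How reads were assigned bears on these levels. Protein-coding rows were at 0 in all 6 libraries for 6.23% of 12563 genes whose exons lie clear of every other gene, but for 93.2% of 353 genes whose exons lie wholly in introns of a gene on the opposite strand and for 92.4% of 105 on the same strand. This is the pattern that counting over whole gene spans without strand would give, with shared stretches left out, and intron reads would then be part of each level. Whether it was done so is not given in the sources used here. Among the members the rows most exposed are ETV4, FGF2 (above) and MAP2K1, with 48.2% of its exon bases under another gene with a row. Exons of 12 members overlap exons of another annotated gene, in 11 of them on the opposite strand. For DUSP6, IER2, IER3 and PHLDA1 the partner is an antisense RNA with no matching row. If strand was not used in counting, reads of these pairs cannot be told apart. Among other pathway genes JUNB, FOSB, ERF, FLRT3 and FGF7 are listed at 0 in all libraries, and at least 99.2% of the exon bases of each lie under another gene. DUSP1 is listed at 0 with none of its exon bases under another gene with a row. Of the cell type markers listed at 0, SOX2 has 100% and NEUROD1 93.6% of exon bases under another gene, and THY1 has 0%.

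A wider list of 87 pathway names was read in the same fit, of which 86 had a row and 72 were tested. It passed the threshold with 0 genes higher and 1 lower (1.39%, beside 0.786% of all genes tested). VGF, a secreted neuropeptide precursor induced by growth factors through ERK, fell from 10.8, 9.15 and 8.07 CPM in control libraries to 4.62, 5.06 and 5.18 CPM in knockdown libraries. Its groups were well apart, at -0.91 ± 0.14 on the log2 scale (edgeR adjusted p = 0.0112), and it was called in 15 of 17 alternatives. The call was lost without control a (adjusted p = 0.0999) and without control b (0.0715). At an unadjusted p under 0.05 there were 17 of the 72 (23.6%, background 14.3%), 5 of them higher (6.94%, background 6.68%) and 12 lower (16.7%, background 7.57%). Knockdown and control values were fully separate for 19 of the 72 (26.4%, background 18.9%), 9 higher and 10 lower (background 9.55% and 9.37%), and the median log2 fold change was 0.01.

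The counts by role that follow, at an unadjusted p under 0.05, stand beside 6.68% higher and 7.57% lower over all genes tested, and with 11 to 21 genes a role a count of 1 is near that background. Of the roles, 14 ligand and receptor-partner genes of the wider list were tested, and 3 were higher and 0 lower, FGF19 having the lowest p of them (0.56 ± 0.15; adjusted p = 0.132). The 14 adaptors and RAS regulators gave 0 higher and 3 lower. The 11 feedback genes gave 1 higher and 4 lower, with DUSP10 (-0.42 ± 0.10; adjusted p = 0.0830) and DUSP8 (-0.61 ± 0.15; adjusted p = 0.0913) at the lowest p. Both are phosphatases that act mainly on the stress kinases JNK and p38. The 21 transcription factors and targets gave 1 higher, the cyclin gene CCND1 (0.26 ± 0.07; adjusted p = 0.112), and 4 lower, VGF and JUN (-0.28 ± 0.08; adjusted p = 0.157) among them.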

How the data were processed

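RNA was sequenced from H9 cells in 3 control gapmer and 3 ALR gapmer libraries, grouped by the labels' genotype field and titles; kits and transfection are per the labels' protocols. The authors deposited raw counts per gene symbol, whole numbers with no scaling. The submitters' processing notes name Trimmomatic 0.39, STAR 2.7.8a, featureCounts, Subread 2.14.2 and build hg38, without their roles. Annotation, strand setting and handling of multimapping reads are not given in the sources used here.

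The table was fitted whole with edgeR 4.0.16 in R 4.3.3 (filterByExpr with a count minimum of 10, TMM, quasi-likelihood test, group as the only term). The 19721 genes kept held 99.9% of counts. P-values are two-sided and Benjamini-Hochberg adjusted over all of them, threshold 0.05. CPM use TMM-scaled library sizes, and log2 CPM for correlations a prior count of 2. SE is the log2 fold change over the square root of the F statistic. Totals of 25087629 to 36576752 counts give members such as ETV4 and EGR1 36 counts or fewer per library, and little precision.

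Gene spans, exon lengths (basic set) and overlaps come from GENCODE 29, which matched 36 of 36 members, and promoter windows from RefSeq. Also tried were other scalings, DESeq2 1.42.0, limma-voom 3.58.1, a robust fit, filters other than filterByExpr (no filter; mean count at least 50), removal of mitochondrial and ribosomal RNA rows, the replicate letter as a block, and each library left out. The removal of the span trend (natural spline, 5 degrees of freedom) and the check of rows at 0 were added after seeing the data. The procedure was tested on simulated data. Members, lists and tests were chosen with earlier results of these data known. Values per library are given for members past the threshold, the 12 with the lowest p and FGF2, FGFR1, DUSP6, SPRY2, SPRY4, ETV4, ETV5, EGR1 and FOS; those of FGFR2, BRAF and FOSL1 were added after their values were seen. From the wider list, genes past the threshold are given in full; others named from it were chosen after their values were seen. That list repeats 1 gene under an older name and holds SPRYD7, which is not a Sprouty gene. One of its groups is not reported here by role. Replicates of a group differed beyond counting noise (chi-square per degree of freedom 8.88 to 21.3). The labels do not say whether the letters pair the libraries.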

Additional observations from a re-analysis of the deposited data

How the results depend on the processing

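Calls depended on the setting more than sizes did; the cause was not tested. Genes called in all numbered 155 (27 higher, 128 lower), or 0.786%. Members numbered 1 (1 and 0, 2.78%) and genes of the wider list 1 (0 and 1, 1.39%). DESeq2's Wald test gave 536 (145 and 391), 3 members (2 and 1) and 4 of the wider list (1 and 3). Its 536 were 4.05% of the genes given an adjusted p. No low-count filter gave 1064 (403 and 661), or 3.29% of 32300, with 6 members (4 and 2) and 7 (1 and 6). Removal of the span trend gave 236 with 60 higher, or 1.48% of 15995. It gave 2 members with 1 lower and 4 of the wider list, all 4 lower. Higher genes numbered 56 with library size alone, 45 with upper-quartile scaling and 54 with the robust fit.

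With the replicate block, 393 genes passed (73 and 320), or 1.99% of all tested. They held 3 members (FGF2, FGF13 and ETV5, 2 of them lower) and 2 of the wider list, both lower. The labels do not say what the letters mark. Correlations of deviations from the group mean, between same-letter libraries, were 1.23e-05 for a, 0.116 for b and -0.0251 for c. Between libraries of different letters they ran from -0.0876 to 0.0907. Whether libraries of the same letter share a batch was not tested.

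Leaving out 1 library gave 26 (without control a) to 1309 genes (without knockdown c), 0 to 197 higher and 25 to 1112 lower. That was 0.127% to 6.4% of the genes tested in each fit. Members ran from 0 to 7 (0 to 2 higher, 0 to 5 lower) and the wider list from 0 to 10 (0 to 1 higher, 0 to 9 lower), both highest without knockdown c. Every library moved the count over all genes by more than 1.5 times: 102 without knockdown a, 61 without knockdown b, 42 without control b and 42 without control c. The member median ran from -0.02 (-0.021, without knockdown b) to 0.06 (0.0552).

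In 9 members the sign changed under at least 1 alternative; the sign was kept in 11 of 17 for MAP2K1, 13 of 17 for FGFR1 and IER3, 14 for DUSP7, 15 for GRB2 and DUSP4, 16 for NRAS and SPRED2, and 12 of 16 for EGR1. FGFR1 was -0.01 (-0.0116) with the span trend removed and -0.03 (-0.0323) to 0.06 (0.058) with a library left out. EGR1 was -0.03 (-0.033) and -0.12 (-0.1248) to 0.26 (0.2576). None of the 9 passed the threshold in any alternative (lowest adjusted p 0.614, SPRED2).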
